A study of Mus musculus with 16 samples.

Results

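Sarcolipin (Sln) and 9 further genes of muscle calcium storage were followed across 4 groups of mouse rotator cuff muscle: Atp2a1, Atp2a2, Ryr1, Casq1, Casq2, Pvalb, Jph1, Jph2 and Srl. These are 10 of the 11710 genes in the deposited count table, found there by gene symbol. Sln was chosen because its rise was the largest among the genes named in an earlier look at the response to surgery in these same samples. Its values before and after surgery are therefore a description, given with no test, and the other 9 genes are tested. All 10 passed the filter on low counts.

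RNA sequencing was done on 16 samples, 4 in each of 4 groups. The groups cross the strain, C57BL/6J (BL6 below) or MRL/MpJ (MRL below), with the surgery, which was removal of a rotator cuff tendon together with denervation of the muscle, or no operation. BL6 is a common inbred reference strain, and MRL is an inbred strain in which some tissues heal unusually well. The series description places the surgery at the infraspinatus while the sample labels name the supraspinatus, both of them muscles of the rotator cuff. The labels give no age, sex or time after surgery, and they do not say that the 4 samples of a group are separate animals, so p-values measure the spread between these samples. The design asks whether muscle of the 2 strains responds differently to a tear.

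In a resting fibre, calcium is held in the sarcoplasmic reticulum, a store wrapped around the contractile filaments. A signal at the surface membrane opens release channels, calcium flows out and the filaments contract, and pumps then draw it back at the cost of ATP while buffers inside and outside the store hold it. Junctional proteins keep the store close to the surface membrane at sites called triads. Fast and slow fibres use partly different versions of these proteins, and denervation is known to change several of them.

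The genes are given with their places in GRCm38 (mm10), from the GENCODE M21 annotation. Sln lies on chromosome 9 (53850164 to 53854560, plus strand) and encodes a small membrane peptide that binds the calcium pumps and lowers their efficiency. Atp2a1 (chromosome 7, 126445858 to 126463108, minus) and Atp2a2 (chromosome 5, 122453513 to 122502225, minus) encode SERCA1, the pump of fast fibres, and SERCA2, the pump of slow fibres and heart, which other cell types also use. Ryr1 (chromosome 7, 29003344 to 29125179, minus) encodes the release channel. Casq1 (chromosome 1, 172209894 to 172219868, minus) and Casq2 (chromosome 3, 102086415 to 102146514, plus) encode calsequestrins, the main calcium-binding proteins inside the store, the first typical of fast fibres and the second of slow fibres and heart. Srl (chromosome 16, 4480216 to 4541816, minus) encodes sarcalumenin, a further binding protein of the store. Pvalb (chromosome 15, 78191114 to 78206400, minus) encodes parvalbumin, a soluble buffer in the cytosol of fast fibres. Jph1 (chromosome 1, 16964560 to 17097889, minus) and Jph2 (chromosome 2, 163336242 to 163397993, minus) encode junctophilins, which tether the store to the surface membrane.

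The RefSeq promoter table (GRCm38.p6) matched 6 of the 10 genes, with 8 entries. Sln, Atp2a2, Jph1 and Srl had no entry. The 250 bases before the start were searched on both strands for the E-box, spelled CANNTG, which myogenic factors bind, and for the MEF2 consensus of muscle promoters. An E-box was found in 6 of the 8 entries, and 66.2% of 32851 promoter windows of that length held one. The Jph2 entries (chr2:163397994-163398243 and chr2:163397974-163398223) overlap and hold the same E-box, which is counted in each. The MEF2 consensus was found in 2 of the 8 and in 2.92% of all windows. The windows of the calsequestrin pair and of Pvalb are printed because Casq1 fell after surgery where Casq2 did not and because Casq2 and Pvalb carry the 2 MEF2 matches. Capitals mark the matches. Casq1 (chr1:172219896-172220145, minus strand) has 2 E-boxes, Casq2 (chr3:102086165-102086414, plus strand) has 2 E-boxes and 1 MEF2 match, and the first Pvalb entry (chr15:78206401-78206650, minus strand) has 1 MEF2 match. A match describes these letters and is not evidence of binding.
Casq1: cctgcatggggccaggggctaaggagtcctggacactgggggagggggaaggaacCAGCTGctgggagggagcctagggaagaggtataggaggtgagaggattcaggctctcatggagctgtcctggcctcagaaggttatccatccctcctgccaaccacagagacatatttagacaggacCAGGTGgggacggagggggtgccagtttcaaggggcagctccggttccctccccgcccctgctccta
Casq2: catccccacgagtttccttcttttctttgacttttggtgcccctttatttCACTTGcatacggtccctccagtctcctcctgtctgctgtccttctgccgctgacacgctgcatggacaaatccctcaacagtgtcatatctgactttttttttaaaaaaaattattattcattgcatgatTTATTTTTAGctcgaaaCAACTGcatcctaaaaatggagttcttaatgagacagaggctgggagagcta
Pvalb: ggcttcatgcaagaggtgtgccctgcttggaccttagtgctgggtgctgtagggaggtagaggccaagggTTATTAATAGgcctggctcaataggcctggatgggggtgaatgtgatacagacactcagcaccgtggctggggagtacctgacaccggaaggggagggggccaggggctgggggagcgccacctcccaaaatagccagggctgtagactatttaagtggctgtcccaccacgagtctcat

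Total counts ranged from 24323862 to 43552964 per sample, and all operated BL6 totals (at most 31094642) lay below all unoperated BL6 totals (at least 33679319). The 13 mitochondrially encoded genes took 12.2 to 14.2% of counts in unoperated BL6, 17.4 to 23.8% in operated BL6, 10.97 to 11.6% in unoperated MRL and 11.8 to 24.9% in operated MRL. Levels below are CPM, that is, counts scaled to a library of 1000000, after adjustment between samples. A count of 3, taken as the floor, was worth 0.0689 to 0.123 CPM, and this and other precision limits cover counting error only. The label of skeletal muscle was checked on 7 markers (Acta1, Ckm, Tnnt3, Tnni2, Myh4, Myh1 and Des), whose summed level was 107967 to 149214 CPM in unoperated BL6 and 100319 to 113646 in unoperated MRL, against 49884 to 132199 and 70449 to 90231 after surgery. Markers of several other cell types moved with surgery in the same samples. A gene was called when its adjusted p was under 0.05 (edgeR quasi-likelihood test, Benjamini-Hochberg over 11709 genes). Of all genes, 35.1% were called higher in BL6 and 22.3% in MRL. Called higher in BL6 and in MRL were 4 and 4 of 4 adipocyte markers and 4 and 4 of 4 smooth muscle markers. Endothelial markers gave 4 and 5 of 5, and Schwann cell markers 5 and 4 of 5. Macrophage markers gave 4 and 0 of 6. Fibroblast markers gave 2 and 0 of 5, the BL6 count being near the share of all genes. The summed adipocyte level was 208 to 279 CPM in unoperated BL6 and 1209 to 1656 in operated BL6, and 262 to 369 and 1086 to 1902 CPM in MRL. Operated BL6 replicate 4 had the highest macrophage sum (559 CPM) and fibroblast sum (5157 CPM) of all samples, and unoperated MRL replicate 1 held 339 CPM of macrophage markers where the rest of its group held 69.6 to 96.5. In a chi-square comparison of counts between replicates, the pairs with operated MRL replicate 4 gave 233 to 301 per gene and the other pairs of its group 44.3 to 64.4. Pairs with operated BL6 replicate 4 gave 157 to 406, and the others 45.2 to 141. Operated MRL replicate 4 also had the 11.8% mitochondrial share, at the unoperated level, where the rest of its group had 20.06 to 24.9%. In bulk muscle, fewer fibres and less RNA of a gene per fibre cannot be told apart, and the part of these other cells in the results was not tested.

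Sln, the brake on the pumps, was the least abundant of the 10 genes in unoperated muscle and one of the few that were higher after surgery. In unoperated BL6 it was measured at 0.661, 2.54, 1.27 and 1.60 CPM in replicates 1 to 4, from 22 to 106 counts. In operated BL6 it was 82.3, 19.6, 50.9 and 63.8 CPM. Unoperated MRL gave 2.63, 0.613, 1.42 and 1.95 CPM, and operated MRL 29.8, 6.59, 49.6 and 62.0 CPM. All operated samples lay above all unoperated samples in both strains, and operated replicate 2 was the lowest of its group in each. The difference was 5.14 on the log2 scale in BL6 (SE 0.67, a 35.2-fold change) and 4.49 in MRL (SE 0.66, 22.5-fold). Leaving out any 1 sample gave 4.87 to 5.51 in BL6 and 4.13 to 4.84 in MRL. The strain comparisons were tested. They use the same samples as the rise by which Sln was chosen and are not independent of that choice. Unoperated MRL and BL6 differed by 0.10 (SE 0.66, adjusted p = 0.948, edgeR quasi-likelihood) and operated MRL and BL6 by -0.55 (SE 0.55, adjusted p = 0.564). The difference between the 2 strains' changes was -0.65 (SE 0.86, adjusted p = 0.705), an estimate too wide to show that the strains respond alike.

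**Figure D1:**
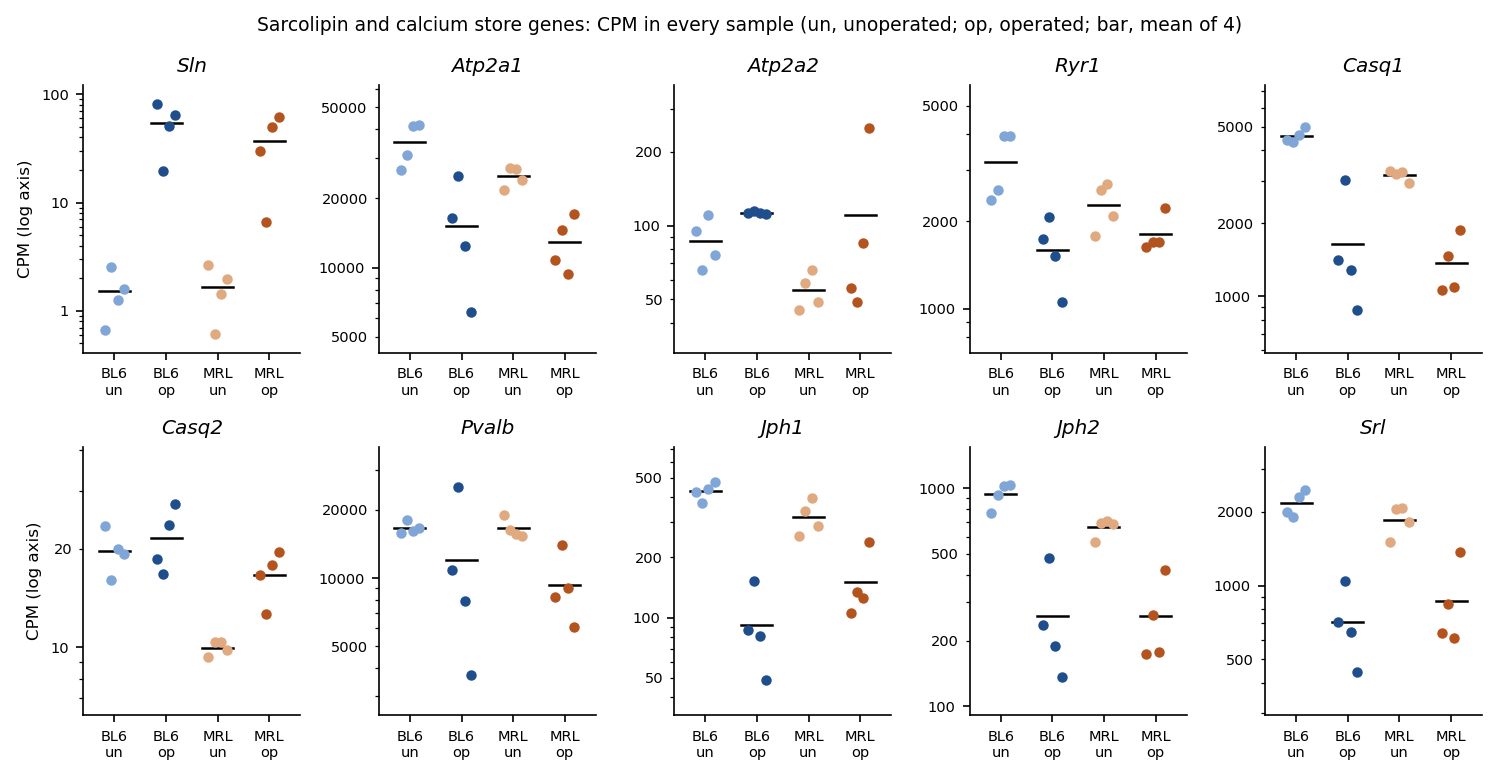
CPM on a log axis for the 10 genes in each of the 16 samples, one panel per gene; points are samples, short lines are group means, and each panel has its own range. Sln lies higher in all operated samples, 6.59 to 82.3 CPM against 0.613 to 2.63 CPM, while Casq1, Jph1, Jph2, Srl and Atp2a1 lie lower in the operated samples of both strains.

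Per kilobase of exon, the order of the genes shows how far Sln moved. In unoperated BL6 the mean levels were 15991 CPM per kb for Pvalb, 10122 for Atp2a1, 2354 for Casq1, 407 for Srl, 221 for Jph2, 147 for Ryr1, 86.0 for Jph1, 14.3 for Atp2a2, 7.19 for Casq2 and 1.15 for Sln. Of neighbours in that order, only the sample ranges of Jph2 and Ryr1 overlapped. The order was the same in unoperated MRL, from 15934 CPM per kb for Pvalb to 1.25 for Sln, with no overlap between neighbours. After surgery Sln was at rank 7 in BL6 at 41.1 ± 20.02 CPM per kb (SD, n = 4) and at rank 8 in MRL at 28.1 ± 18.4. Its range overlapped those of both neighbours there: Jph2 (61.1) and Atp2a2 (18.6) in BL6, and Jph1 (30.3) and Atp2a2 (18.1) in MRL. Casq2 was then the lowest of the 10, at 7.88 CPM per kb in BL6 and 6.09 in MRL.

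Among the 9 other genes, falls prevailed. In BL6, 6 of 9 fell (Atp2a1, Ryr1, Casq1, Jph1, Jph2 and Srl) and none rose, against 32.8% of all tested genes called lower and 35.1% called higher (67.9% in either direction). In MRL, 5 of 9 fell (Atp2a1, Casq1, Jph1, Jph2 and Srl) and 2 rose (Atp2a2 and Casq2), against 22.7% and 22.3% of all genes (45.0% in either direction). The median log2 difference of the 9 was -1.22 in BL6 and -0.95 in MRL, where the median over all genes was 0.04 and 0.01. Every operated sample lay below every unoperated sample for 6 of the 9 in each strain, which 29.2% of all genes showed in BL6 and 16.7% in MRL. Every operated sample lay above every unoperated one for 1 of the 9 in each strain, Atp2a2 in BL6 and Casq2 in MRL, against 27.5% and 17.0% of all genes. Without operated BL6 replicate 4, all 6 falls in BL6 were called, and without operated MRL replicate 4, all 5 falls in MRL were called and 1 of the 2 rises, that of Casq2. The authors' deposited table called 0 of the 9 higher and 6 lower in BL6, and 2 higher and 6 lower in MRL.

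**Figure D2:**
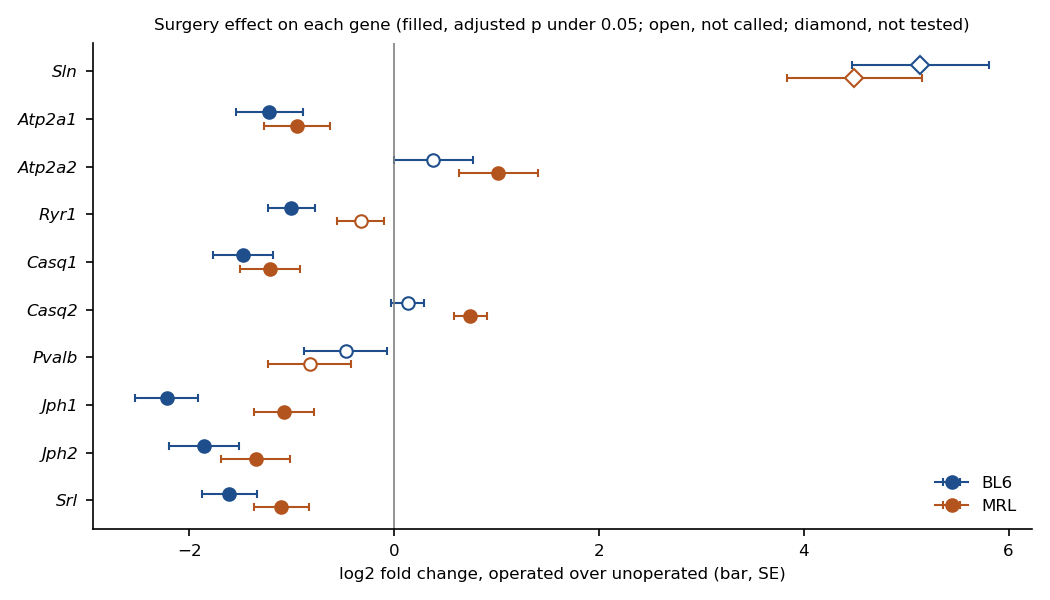
Log2 difference, operated minus unoperated, for the 10 genes in BL6 and MRL; bars are standard errors, and filled points passed an adjusted p of 0.05, while Sln, drawn as an open diamond, was not tested. Sln stands at 5.14 and 4.49, and the falls run from -0.95 (Atp2a1 in MRL) to -2.22 (Jph1 in BL6).

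Of the pumps, the fast-fibre Atp2a1 fell in both strains. It was 26577, 30987, 41344 and 41875 CPM in unoperated BL6 and 16488, 25152, 12425 and 6374 CPM in operated BL6. In MRL it was 21767, 27128, 26801 and 24189 CPM without surgery and 10761, 14506, 9416 and 17040 CPM with it. Operated samples lay below unoperated samples throughout, and operated BL6 spread widest. The log2 difference was -1.22 in BL6 (SE 0.32, adjusted p = 0.00395) and -0.95 in MRL (SE 0.32, adjusted p = 0.0269). The MRL call was lost when unoperated MRL replicate 2 or 3 or operated MRL replicate 1 or 3 was left out (adjusted p = 0.0621, 0.0591, 0.0725 and 0.0851 in that order). Of the exon bases of Atp2a1, 763 (21.9%) are shared with Rabep2 on the opposite strand, and whether the counting used strand is not given in the sources used here.

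The slow-fibre and housekeeping pump Atp2a2 did not fall. It was 95.2, 65.5, 110.5 and 75.8 CPM in unoperated BL6 and 112.2, 115.1, 112.9 and 112.0 CPM in operated BL6. Every operated BL6 sample was the higher, by small margins, and the difference of 0.38 was not called (SE 0.38, adjusted p = 0.385). In MRL it was 45.3, 58.0, 65.7 and 48.7 CPM without surgery and 55.3, 48.9, 84.5 and 251.7 CPM with it. The MRL difference of 1.02 was called (SE 0.39, adjusted p = 0.0428), yet the groups overlapped and operated replicate 4 stood far above the next sample. Without that replicate the difference was 0.21 (adjusted p = 0.386). The call was also lost when any of 9 other samples was left out (unoperated BL6 replicate 1 or 4, operated BL6 replicate 1 or 3, any unoperated MRL sample or operated MRL replicate 3), with adjusted p between 0.0507 and 0.0952, and so was it with the replicate number as a block (0.83, adjusted p = 0.0930).

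The same library also carried the highest slow-fibre signal. The summed level of 6 slow-fibre genes (Myh7, Tnnt1, Tnni1, Tnnc1, Myl2 and Myl3) was 111, 64.1, 360 and 845 CPM in operated MRL replicates 1 to 4. It was 48.5, 97.3, 78.6 and 73.3 CPM in unoperated MRL, 125, 143, 208 and 103 CPM in unoperated BL6, and 180, 335, 258 and 213 CPM in operated BL6. Replicate 4 of operated MRL held 201 CPM of Myh7, the slow myosin heavy chain, where the other 3 held 0.936 to 16.2, and 50.1 CPM of Myh6, a heart myosin that some skeletal fibres also carry, where the others held 0.971 to 5.75. Tnnt2, a heart troponin, was 1.29 CPM in that library against 1.08 to 4.01 in the other 3. Of the slow-fibre genes, 5 of 6 were called higher in MRL and 1 of 6 in BL6, against 22.3% and 35.1% of all genes. Without operated MRL replicate 4, 2 of 6 were called in MRL, Myl2 (1.28, adjusted p = 0.0112) and Tnnt1 (1.86, adjusted p = 0.00778). Their part in the Atp2a2 difference was not tested.

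**Figure D3:**
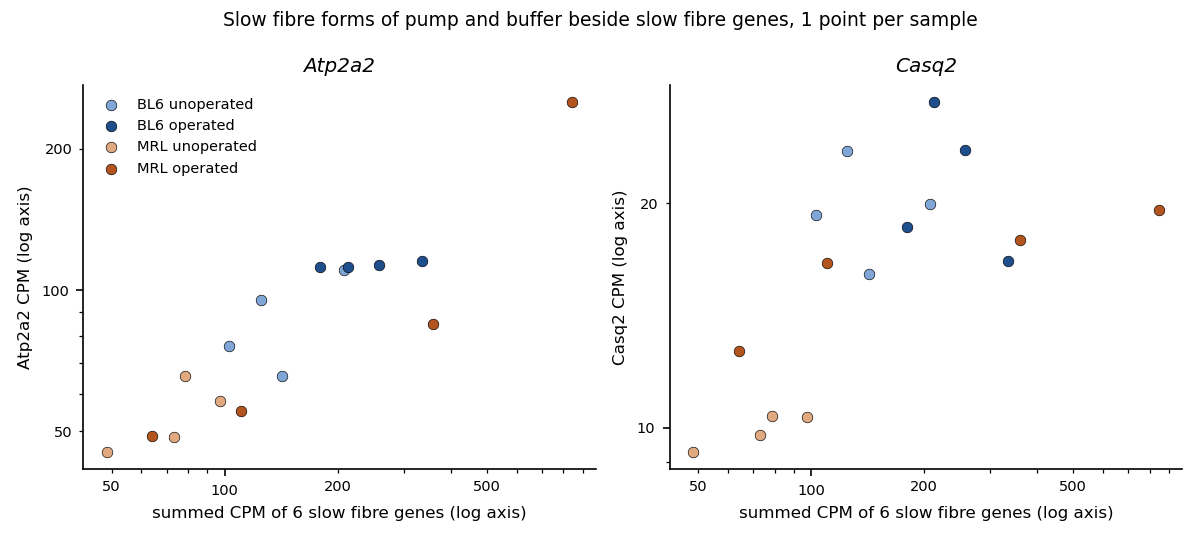
Atp2a2 and Casq2 (CPM, vertical axes) against the summed CPM of 6 slow-fibre genes (horizontal axis), all axes logarithmic; each point is 1 of the 16 samples, coloured by group. Operated MRL replicate 4 is the point at 845 CPM of slow-fibre genes and 251.7 CPM of Atp2a2.

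Ryr1, the release channel, fell in BL6. It was 2362, 2559, 3939 and 3945 CPM in unoperated BL6 and 1745, 2065, 1513 and 1058 CPM in operated BL6, without overlap. The log2 difference was -1.005 (SE 0.23, adjusted p = 0.00136). In MRL it was 1776, 2555, 2681 and 2078 CPM without surgery and 1627, 1692, 1696 and 2227 CPM with it, where the groups overlapped. There the difference of -0.33 was not called (SE 0.23, adjusted p = 0.242). The difference between the strains' changes was 0.68 (SE 0.32, unadjusted p = 0.0515, adjusted p = 0.320), so a strain difference in the response of Ryr1 was not shown. The authors' deposited table gave -0.89 in BL6 (false discovery rate 0.00146) and -0.47 in MRL (0.0599).

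The calsequestrins differed: Casq1 fell in both strains, and Casq2 rose in MRL and was not called in BL6. Casq1 was 4423, 4325, 4635 and 4986 CPM in unoperated BL6 and 1413, 3018, 1287 and 876 CPM in operated BL6. MRL samples held 3284, 3195, 3262 and 2935 CPM without surgery and 1057, 1468, 1091 and 1872 CPM with it. No operated sample reached an unoperated one in either strain. Casq1 fell by 1.48 on the log2 scale in BL6 (SE 0.29, adjusted p = 0.00051) and by 1.21 in MRL (SE 0.29, adjusted p = 0.00557).

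Casq2 was 23.5, 16.1, 19.9 and 19.3 CPM in unoperated BL6 and 18.6, 16.7, 23.6 and 27.3 CPM in operated BL6. The BL6 groups overlapped, and the difference of 0.13 was not called (SE 0.16, adjusted p = 0.475); it was -0.0091 without operated BL6 replicate 4. In MRL Casq2 was 9.29, 10.4, 10.4 and 9.78 CPM without surgery and 16.6, 12.7, 17.8 and 19.6 CPM with it. Every operated MRL sample was higher, and the rise of 0.74 passed the test (SE 0.16, adjusted p = 0.00339), as it did without operated MRL replicate 4 (0.66, adjusted p = 0.00587). Operated MRL began from the lower level: unoperated MRL held less Casq2 than unoperated BL6 by 0.98 on the log2 scale (SE 0.16, adjusted p = 0.000703), with no overlap. The difference between the strains' changes was 0.61 (SE 0.23, unadjusted p = 0.0169) and did not pass after adjustment (adjusted p = 0.237).

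Srl, the other binding protein of the store, fell in both strains. It was 2008, 1901, 2297 and 2464 CPM in unoperated BL6 and 709, 1043, 648 and 443 CPM in operated BL6. MRL samples gave 1503, 2049, 2080 and 1815 CPM without surgery and 640, 839, 610 and 1378 CPM with it. The groups did not overlap in either strain, and operated MRL replicate 4 was the operated sample closest to the unoperated range. The log2 difference was -1.61 in BL6 (SE 0.27, adjusted p = 0.000148) and -1.10 in MRL (SE 0.27, adjusted p = 0.0056).

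Pvalb, the buffer of the fast-fibre cytosol, was not called in either strain. It was 15784, 17967, 16179 and 16656 CPM in unoperated BL6 and 10889, 25365, 7930 and 3723 CPM in operated BL6. Of these operated samples, 3 lay under all unoperated ones and replicate 2 lay above them all, so that the difference was -0.47 (SE 0.41, adjusted p = 0.308). Without operated BL6 replicate 2 it was -1.15 and was called (adjusted p = 0.00481). In MRL Pvalb was 19087, 16300, 15638 and 15325 CPM without surgery and 8281, 13974, 9076 and 6084 CPM with it, every operated sample being lower. The MRL difference of -0.83 was not called (SE 0.41, adjusted p = 0.106). It was called with the replicate number as a block (-0.92, adjusted p = 0.0437) and, through the shared estimate of the spread, without operated BL6 replicate 2 (adjusted p = 0.0273) or 4 (adjusted p = 0.0322). The authors' deposited table gave -1.04 in MRL with a false discovery rate of 0.0490.

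Both junctophilins fell in both strains, and in BL6 theirs were the largest falls among the 9 genes. Jph1 was 428, 375, 439 and 478 CPM in unoperated BL6 and 86.4, 153, 80.6 and 48.9 CPM in operated BL6. The MRL values were 255, 341, 395 and 287 CPM without surgery and 106, 135, 126 and 240 CPM with it. The ranges were far apart in BL6 and came close in MRL through operated replicate 4. Jph1 fell by 2.22 on the log2 scale in BL6 (SE 0.31, adjusted p = 3.74e-05) and by 1.08 in MRL (SE 0.30, adjusted p = 0.00997). The strains' changes differed by 1.15 (SE 0.42, unadjusted p = 0.0143), which did not pass after adjustment (adjusted p = 0.230).

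Jph2 was 766, 933, 1027 and 1032 CPM in unoperated BL6 and 236, 477, 190 and 137 CPM in operated BL6. The MRL values were 569, 689, 707 and 682 CPM without surgery and 174, 263, 177 and 423 CPM with it. Operated samples were lower throughout. Jph2 fell by 1.85 in BL6 (SE 0.34, adjusted p = 0.000276) and by 1.35 in MRL (SE 0.34, adjusted p = 0.00627).

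Ratios of paired genes within a sample do not depend on scaling between samples. They were taken per kilobase on the log2 scale and tested with two-sided exact permutation tests, 12 in all, adjusted together. With 4 samples against 4 the smallest exact p is 0.0286, and the smallest adjusted value reached was 0.0571, so no ratio passed the threshold after adjustment. Atp2a1 over Atp2a2 went from 9.47 ± 0.43 to 7.70 ± 0.82 in BL6 and from 9.66 ± 0.12 to 7.98 ± 0.93 in MRL (SD, n = 4; exact p = 0.0286 each, adjusted p = 0.0571). As plain ratios these were 488 to 966 in unoperated BL6, 99.5 to 382 in operated BL6, 714 to 869 in unoperated MRL and 118 to 519 in operated MRL, so that SERCA1 transcripts exceeded those of SERCA2 in every sample.

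Casq1 over Casq2 went from 8.36 ± 0.23 to 6.62 ± 1.04 in BL6 and from 8.80 ± 0.10 to 6.83 ± 0.45 in MRL (SD, n = 4; exact p = 0.0286 each, adjusted p = 0.0571). The groups did not overlap in either strain. This ratio was also higher in unoperated MRL than in unoperated BL6, by 0.44 (exact p = 0.0286, adjusted p = 0.0571).

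Jph1 over Jph2 differed with surgery by -0.33 in BL6 and 0.32 in MRL (exact p = 0.0571, adjusted p = 0.0857 for each). The groups overlapped, and neither difference passed the threshold. After surgery it was -0.98 ± 0.20 in MRL and -1.68 ± 0.17 in BL6 (SD, n = 4), without overlap (exact p = 0.0286, adjusted p = 0.0571). The difference of opposite signs between the strains' changes was not tested for this ratio.

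Sln set against its target Atp2a1 is a description, since Sln was chosen by its change. Per kilobase, Atp2a1 exceeded Sln 4608-fold to 14905-fold in unoperated BL6 and 3121-fold to 16423-fold in unoperated MRL. After surgery the excess was 37.8-fold to 486-fold in BL6 and 72.0-fold to 832-fold in MRL. The groups did not overlap, and operated replicate 2 held the greatest excess in both strains.

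**Figure D4:**
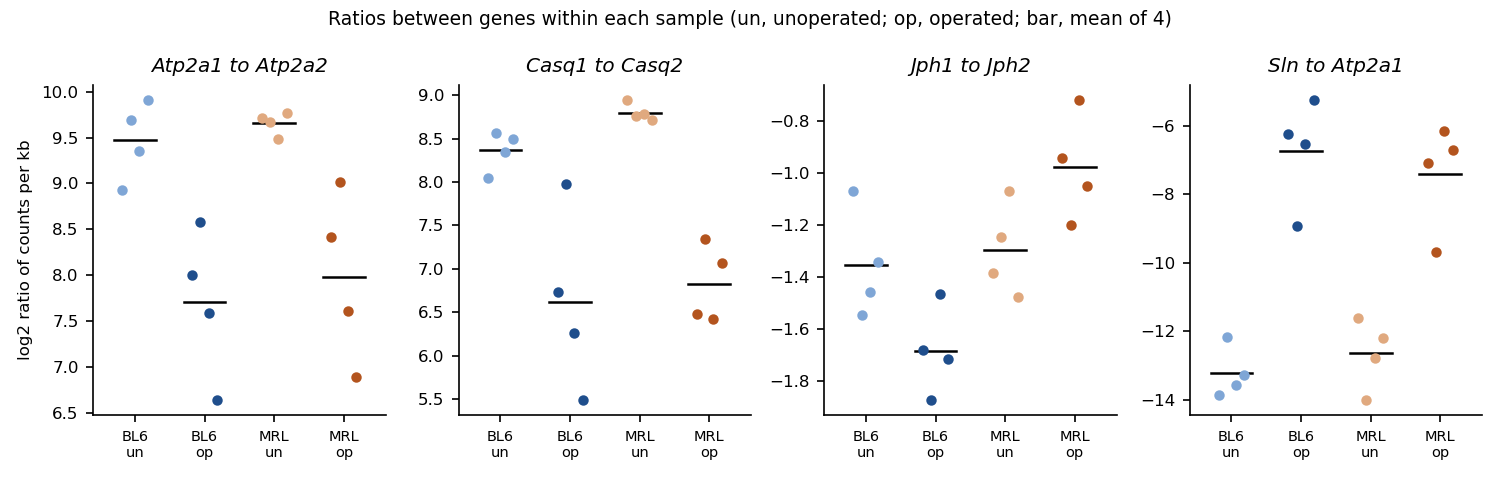
Log2 ratios per kilobase of Atp2a1 to Atp2a2, Casq1 to Casq2, Jph1 to Jph2 and Sln to Atp2a1 in each of the 16 samples; points are samples and short lines are group means. The first 2 ratios lie lower in all operated samples of each strain and the last lies higher.

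Between unoperated muscles of the 2 strains, 9 of the 10 genes had a negative difference (MRL minus BL6), but only Casq2 was called, against 10.4% of all genes called in either direction, 5.36% lower and 5.02% higher. Besides Casq2, Casq1 (-0.54, SE 0.29, adjusted p = 0.277) and Jph2 (-0.51, SE 0.33, adjusted p = 0.379) had no overlap between the strains, a pattern that 12.9% of all genes showed in that direction. Ryr1 differed by -0.49 (SE 0.23, unadjusted p = 0.0454, adjusted p = 0.196). Atp2a2 differed by -0.67 and was not called (adjusted p = 0.306), but was without operated MRL replicate 4 (-0.68, adjusted p = 0.0246), through the shared estimate of the spread. Pvalb was level, at -0.01 (SE 0.40, adjusted p = 0.996).

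Between operated muscles none of the 10 genes was called by edgeR's quasi-likelihood test, and none by DESeq2, against 12.9% of all genes (7.6% higher and 5.27% lower). None had strain groups that did not overlap, against 7.41% of all genes with every MRL sample higher and 6.16% with every one lower. At an unadjusted p under 0.05 there were 2, Jph1 (0.72, SE 0.29, adjusted p = 0.128) and Casq2 (-0.37, SE 0.16, adjusted p = 0.151). Jph1 was called without operated BL6 replicate 2 (1.08, adjusted p = 0.0133) and with scaling by total counts alone (0.88, adjusted p = 0.0365). Atp2a2 differed by -0.04 (SE 0.38, adjusted p = 0.962) and was called lower in MRL without operated MRL replicate 4 (-0.85, adjusted p = 0.0136).

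The test of the strains' changes against each other called none of the 10 genes, by edgeR's quasi-likelihood test or by DESeq2, against 0.248% of all genes (0.154% with a higher and 0.0939% with a lower change in MRL). At an unadjusted p under 0.05 there were 2, Casq2 and Jph1. The sign was positive for 8 of the 10, all but Sln and Pvalb. The 2 surgery comparisons use separate samples, but each shares its samples with this test, so the signs add no independent evidence.

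The wider calcium system was read from 12 lists with 84 genes, of which 74 were analysed here, the 10 above and 64 others. In BL6, 14 of the 64 rose (21.9%) and 32 fell (50.0%), with a median of -0.35. In MRL, 8 rose (12.5%) and 23 fell (35.9%), with a median of -0.24; 19 were called without operated MRL replicate 1, and 19 without replicate 3, in place of 31. The shares over all genes were 35.1% and 32.8% in BL6 and 22.3% and 22.7% in MRL.

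Among small peptides that bind the pumps, Pln (phospholamban, the brake of SERCA2) rose in BL6 by 0.73 (SE 0.26, adjusted p = 0.0201), from 2.21 ± 0.343 to 3.66 ± 1.22 CPM (SD, n = 4). In MRL it went from 2.33 to 3.46 CPM, a difference of 0.57 that was not called (adjusted p = 0.0819). The clone gene 1810037I17Rik, which encodes another-regulin, a pump inhibitor found in many tissues, rose in both strains, by 0.71 (adjusted p = 0.000322) and 0.39 (adjusted p = 0.0276). Mrln (myoregulin, a pump inhibitor of skeletal muscle) did not pass the test, at -0.03 and -0.64. At 53.6 CPM in unoperated BL6 and 97.7 in unoperated MRL, Mrln counts exceeded those of Sln before surgery, and after it they stood at 52.6 and 62.8 CPM beside 54.1 and 37.0 CPM of Sln; these levels are CPM and not per length. The third pump gene, Atp2a3, typical of blood and endothelial cells, rose in BL6 by 0.97 (adjusted p = 0.000623), from 13.7 to 26.9 CPM, and differed by 0.47 in MRL (adjusted p = 0.0639).

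On the side that triggers release, falls prevailed. Of the voltage sensor genes, 5 of 6 fell in each strain, against 32.8% of all genes in BL6 and 22.7% in MRL. They include Cacna1s, the voltage-sensing channel subunit that faces Ryr1, which fell by 1.25 in BL6 (SE 0.23, adjusted p = 0.000265) and by 0.88 in MRL (SE 0.23, adjusted p = 0.00754), and its partner Cacnb1, which fell by 0.76 and 0.54 (adjusted p = 0.00248 and 0.0293). Of the genes of triad structure other than the junctophilins, 5 of 6 fell in BL6 and 4 of 6 in MRL. Bin1, which shapes the membrane tubules, fell by 0.48 in BL6 (adjusted p = 0.0191) and differed by -0.39 in MRL (adjusted p = 0.0652). Cav3, the muscle caveolin, differed by -0.31 and -0.33 and was not called (adjusted p = 0.0627 and 0.0705). The release channel complex was mixed, with 3 of 9 higher and 3 lower in BL6 and 2 and 2 in MRL. These counts were near the shares of all genes, 35.1% and 32.8% in BL6 and 22.3% and 22.7% in MRL. In it, Trdn (triadin, the link between Ryr1 and calsequestrin) differed by -0.32 and -0.12 and was not called, while Asph, whose gene also encodes junctin, fell by 0.87 and 0.56 (adjusted p = 0.000244 and 0.0113).

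Inside the store, the general endoplasmic reticulum buffers did not follow Casq1. Of 5 such genes, 1 was called higher in BL6, Calr (calreticulin), by 0.37 (SE 0.14, adjusted p = 0.0245), and 0 in MRL, where Calr differed by 0.28 (adjusted p = 0.102); the count in MRL was also 0 at an unadjusted p under 0.05. Calu (calumenin) differed by 0.07 and -0.01. Of genes for entry of calcium when the store is empty, 2 of 7 rose and 3 fell in each strain. Over all genes, 35.1% were called higher and 32.8% lower in BL6, and 22.3% and 22.7% in MRL. Stim1, the sensor of store filling, fell by 0.88 and 0.56 (adjusted p = 0.000985 and 0.0258), and Stim2 fell by 0.53 and 0.31 (adjusted p = 0.000189 and 0.0146).

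For the surface pumps and exchangers, 1 of 5 rose and 3 fell in BL6, and 0 rose and 2 fell in MRL. The shares over all genes were 35.1% higher and 32.8% lower in BL6, and 22.3% and 22.7% in MRL. Atp2b1 and Atp2b3, calcium pumps of the surface membrane, fell by 1.26 and 1.37 in BL6 (adjusted p = 1.92e-05 and 9.8e-05) and by 0.61 and 0.69 in MRL (adjusted p = 0.00611 and 0.0181). Of 7 genes of mitochondrial calcium uptake, 2 rose and 3 fell in BL6, and 2 rose and 1 fell in MRL. The channel itself, Mcu, fell by 0.39 and 0.41 (adjusted p = 0.0372 and 0.0412).

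Of 12 genes of calcium sensing (calmodulin-dependent kinases, calcineurin, its inhibitors, NFAT transcription factors and calpain), 10 fell in BL6 and 6 in MRL, with none higher. Camk2a, a calmodulin-dependent kinase, fell by 1.67 in BL6 (SE 0.24, adjusted p = 4.37e-05) and by 1.12 in MRL (SE 0.23, adjusted p = 0.00274). Camk2b fell by 0.76 in BL6 (adjusted p = 0.00911) and differed by -0.22 in MRL (adjusted p = 0.450). Of the 3 IP3 receptors, release channels used by most cell types, 2 rose in BL6 and 1 in MRL. Among all genes, 35.1% were called higher and 32.8% lower in BL6, and 22.3% and 22.7% in MRL. Itpr2 rose in BL6 by 0.47 (adjusted p = 0.0146) and differed by 0.27 in MRL, and Itpr1 differed by -0.49 and -0.20.

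**Figure D5:**
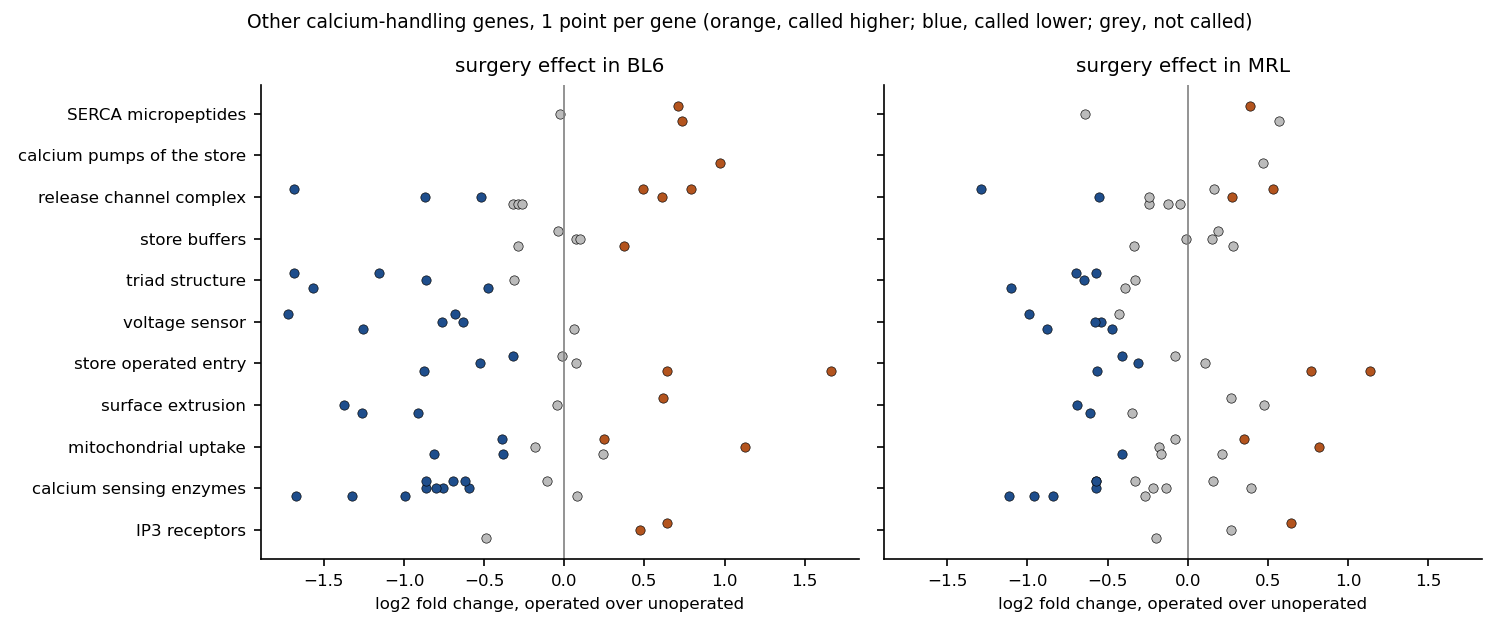
Log2 difference, operated minus unoperated, for the 64 other calcium genes, by list, in BL6 and MRL; each point is a gene, orange where called higher, blue where called lower and grey where not called at an adjusted p of 0.05. The voltage sensor, triad and sensing lists lie mostly below 0 in both strains, and the pump-binding peptides run from -0.64 to 0.73.

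Between the strains, these 64 genes differed little without surgery: 1 was called, Sdf4, a luminal calcium-binding protein (-0.41, SE 0.08, adjusted p = 0.00415), and 11 were at an unadjusted p under 0.05. That count was 4 without operated MRL replicate 4, 3 without operated BL6 replicate 4 and 2 without operated BL6 replicate 2, through the shared estimate of the spread. The 1 gene called is 1.56% of the 64, against 10.4% of all genes. After surgery 8 were called (6.25% higher and 6.25% lower), against 7.6% and 5.27% of all genes, so the share was near that of all genes. Canx, Mtm1, Atp2b1 and Micu3 were higher in MRL, by 0.33, 0.999, 0.49 and 0.88, and Atp2a3, Jsrp1, Sdf4 and Itpr2 were lower, by -0.84, -0.52, -0.36 and -0.54. These 8 genes are named because they were called, and all but Atp2a3, Atp2b1 and Itpr2 were picked with their values in view. The count was 16 without operated BL6 replicate 2, and 5 without operated BL6 replicate 1 or 3 or operated MRL replicate 1 or 4. None of the 64 was called in the test of the strains' changes against each other by edgeR's quasi-likelihood test, with 7 at an unadjusted p under 0.05 and 1 called by DESeq2; 1 was also called by edgeR without operated BL6 replicate 2.

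The genes whose pattern was most like that of Sln were read from 9655 genes by Pearson's r over the 16 samples, as a description. For log2 CPM they were Bcap31 (r = 0.952), Mustn1 (0.946), Grrp1 (0.943), Isyna1 (0.942) and Rasl12 (0.938). Because the samples fall into operated and unoperated clusters, these values mostly follow the gap between the clusters. All 5 were higher after surgery in both strains, which the choice by likeness to Sln largely fixes. Mustn1, a small nuclear protein of muscle and bone, went from 51.9 to 78.1 CPM in unoperated BL6 to 252 to 520 in operated BL6, and from 76.1 to 112 CPM to 284 to 361 in MRL. Grrp1 went from 2.08 to 10.6 CPM in the BL6 means and from 2.04 to 6.38 in the MRL means.

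Taken as deviations from each group's mean, which removes the gap, the nearest genes were Rasl12 (r = 0.776), Wdr13 (0.768), Dapp1 (0.753), Aatk (0.748) and Top3a (0.747). Only Rasl12 was in both sets. Rasl12, a small GTPase of the Ras family, was higher after surgery by 1.34 in BL6 (SE 0.23) and by 0.84 in MRL (SE 0.23). Dapp1 and Top3a were not called after surgery in either strain.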

How the data were processed

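RNA of rotator cuff muscle was sequenced in 16 samples, and each sample's strain and surgery come from its labelled characteristics. The authors deposited raw counts, whole numbers for each gene with 1 column per sample and no scaling, as judged from the values. FastQC, STAR, edgeR and the build mm10 are named per the submitters' processing notes, with no versions; the counter, its annotation and its use of strand are not given in the sources used here. The authors also deposited log2 fold changes, p-values and false discovery rates for 4 comparisons, per the file headers; these were used only where named.

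From the counts, edgeR 4.0.16 in R 4.3.3 was run with TMM scaling, filterByExpr at a minimum count of 10 (11709 of 11710 genes kept) and a quasi-likelihood fit of 1 mean per group over all 16 samples. P-values were adjusted by Benjamini-Hochberg over all genes tested, with a threshold of 0.05. The SE is the log2 difference divided by the root of its F statistic. Levels per kilobase use the summed exon length in GENCODE M21, which held 11708 of 11710 IDs. Log ratios of genes used counts plus 0.5 and two-sided exact permutation tests. Counts with 200 changed genes among 11710 were simulated for the BL6 surgery comparison. The fit recovered 50 of 50 genes at a log2 change of 1 and 49 of 50 at -1. It recovered 50 of 50 at 2 and 50 of 50 at -2. The simulated counts had the same spread for all genes and no outlying library, so this recovery does not give the power in the real samples.

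The members, gene lists and tests were chosen with earlier results of these data known. Genes are named by rule: the 10 members, the first 2 analysed genes of each calcium list that are not members, all analysed pump-binding peptides, the 5 genes most like Sln by each of 2 measures (mean of at least 5 CPM, no predicted-gene or clone name), and marker genes where a list is described. Genes of the lists outside the 74 were not analysed here. One gene that the rule selects is not reported here.

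The alternatives were other size factors, total counts alone, scaling without mitochondrially encoded genes, no filter, DESeq2 1.42.0, the replicate number as a block, and each sample left out, 22 settings in all. Groups share replicate numbers only through the sample titles. Replicates of every group differed by more than sampling noise, and each sample counts once.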

Additional observations from a re-analysis of the deposited data

Results flagged for a closer look

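In 56 groups of 4 values (10 genes and 4 ratios in 4 groups), the highest or lowest sample was checked for a wide gap to the rest of its group. The gap was compared with Dixon's 95% critical value for a share of the group's range. Ryr1 in operated MRL replicate 4 was the 1 value past it, at 2227 CPM where the other 3 samples held 1627 to 1696 CPM, a gap of 0.886 of the range. Chance gives such a gap in about 1 in 20 groups. That library held the most of its group for each of the 10 genes but Pvalb, of which it held the least (6084 CPM). It held 17040 CPM of Atp2a1, 1378 CPM of Srl and 251.7 CPM of Atp2a2. Its slow-fibre sum (845 CPM) was also the highest of its group. The part of these features in the Ryr1 value was not tested.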

How the results depend on the processing

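Deviations of same-numbered samples correlated on average at -0.141, 0.092, 0.160 and 0.165 in the 4 comparisons of groups. In each some pair was below 0.1. With 4 pairs in each comparison, this does not settle whether the replicate numbers pair the samples. With the replicate block, edgeR called 6 of 9 genes after surgery in BL6 and 7 in MRL (Pvalb at -0.92 gained, Atp2a2 at 0.83 lost), 0 in the test between the strains' changes, 1 without surgery and 0 after it. In the block the unoperated strain difference of Sln turned to -0.18 and the operated one of Jph2 to 0.0036.

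Scaling by total counts alone moved the median of all genes to 0.18 (BL6 surgery), 0.06 (MRL surgery), 0.15 (unoperated strains), 0.04 (operated strains) and -0.10 (between changes). In the strain comparisons it turned Pvalb without surgery to 0.14, no further than the median of all genes moved, and, after surgery, Atp2a2 to 0.066 and Jph2 to 0.17. It called 1 of 10 genes after surgery (Jph1) and 3 of the 64 others without it. DESeq2 called 1 of the 64 others in the test between changes. Surgery calls of the 9 genes were 6 in BL6 and 7 in MRL with other size factors, no filter and DESeq2.

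Leaving out 1 sample gave 6 to 7 calls among the 9 genes in BL6 and 5 to 8 in MRL; 19 to 40 of the 64 others in MRL; 0 to 1 of the 64 others between changes; 1 to 2 of the 10 genes and 1 to 4 of the 64 without surgery; and 0 to 1 of the 10 and 5 to 16 of the 64 between operated strains. It changed a sign in 20 values of single genes, none of them called: Casq2 in BL6 (-0.0091 to 0.24); between changes, Atp2a2 (-0.17 to 0.88) and Pvalb (-0.64 to 0.32); between unoperated strains, Sln (-0.23 to 0.47) and Pvalb (-0.0895 to 0.0335); between operated strains, Atp2a1 (-0.48 to 0.14), Atp2a2 (-0.85 to 0.21), Casq1 (-0.47 to 0.20), Pvalb (-0.65 to 0.32), Jph2 (-0.35 to 0.47) and Srl (-0.0366 to 0.53). The ratio differences moved by less than 1 SD between replicates under every setting run. Between operated strains those of Atp2a1 to Atp2a2 (-0.08 to 0.64) and Casq1 to Casq2 (-0.16 to 0.67) spanned 0. That of Jph1 to Jph2 between unoperated strains (-0.02 to 0.15) also spanned 0. The causes of these changes were not tested.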

Other observations

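One pattern ran across genes of opposite direction and was chosen after the values were seen. Operated replicate 2 had the least Sln of its group in both strains, 19.6 CPM in BL6 and 6.59 in MRL, and the most Pvalb, 25365 and 13974 CPM. It also had the highest sum of 6 fast-fibre genes (Myh4, Myh1, Myh2, Tnnt3, Tnni2 and Tnnc2), 109597 CPM in BL6 and 72734 in MRL. Its sum of the 7 skeletal muscle markers, which include Myh4, Myh1, Tnnt3 and Tnni2, was likewise the highest, 132199 CPM in BL6 and 90231 in MRL. The slow-fibre sum of operated replicate 2 was the highest of its group in BL6 (335 CPM) and the lowest in MRL (64.1 CPM). Of the 6 fast-fibre genes, 1 was called lower after surgery in BL6, Myh4, against 32.8% of all genes. In MRL 0 were called lower by edgeR's quasi-likelihood test, against 22.7% of all genes, and 0 had an unadjusted p under 0.05.

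Of the 5 analysed genes of developing or denervated fibres, 2 rose and 1 fell in BL6, near the 35.1% and 32.8% of all genes called, and 3 rose and 1 fell in MRL, where 22.3% and 22.7% of all genes were called. Their summed level was 43.4 to 54.4 CPM in unoperated and 43.6 to 101 CPM in operated BL6. In MRL it was 35.4 to 40.3 and 50.5 to 85.9 CPM. The 5 genes (Myh3, Myh8, Myog, Chrna1 and Ncam1) moved in opposite directions, which the sum mixes. Myog was 1.85 to 4.63 CPM in unoperated and 8.03 to 17.9 CPM in operated BL6. In MRL Myog was 2.29 to 4.77 CPM without surgery and 8.02 to 15.1 CPM with it. Chrna1 went the other way, at 16.5 to 23.3 CPM in unoperated and 12.8 to 17.9 CPM in operated BL6. In MRL Chrna1 was 13.1 to 14.6 CPM without surgery and 8.84 to 12.5 CPM with it.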
